A study of Mus musculus with 4 samples.

Results

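*Mid1*, its paralog *Mid2*, *Igbp1* and the catalytic subunit genes *Ppp2ca* and *Ppp2cb* were followed by RNA-seq in mouse embryonic stem cells (mESCs) labelled wild-type (WT) or *Spen* knockout (KO). These 5 genes were taken by name from the 37310 genes of the count table, and all 5 were among the 17710 genes that received an adjusted p-value. *Mid1* was chosen by its large fall in this same comparison, so its values are given as a description with no test. The other 4 genes were listed as its paralog and its partners in phosphatase control.

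Both groups are of the HATX line, mESCs that the study describes as haploid and that carry a doxycycline-inducible *Xist* transgene. For both, the strain is labelled as mixed genomic background with no treatment stated, and cells were grown on gelatin in serum with LIF. The KO-labelled group is clone 2 alone, so other features of that clone cannot be told apart from the effect of *Spen*. There were 2 libraries per group, and no source says whether they came from separate cultures, so p-values measure only the spread between these libraries.

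MID1 is a microtubule-associated RING-type E3 ubiquitin ligase of the TRIM family, and its loss of function in people causes X-linked Opitz syndrome. Its B-box region binds alpha4, the product of *Igbp1*, which in turn holds the free catalytic subunit of protein phosphatase 2A (PP2A). Through this bridge MID1 marks PP2A catalytic subunit at microtubules for degradation, and it has been tied by the same route to signalling by the mTORC1 kinase complex.

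To show how far reads of the paralogs can be told apart, the most alike stretch of read length is given for *Mid1* and *Mid2*. On the mouse genome build mm9, plus strand, with lower case for shared bases and capitals for bases that differ within the pair, the *Mid1* stretch lies at chrX:166365464-166365538 and the *Mid2* stretch at chrX:137213113-137213187, both in coding exons.
Mid1: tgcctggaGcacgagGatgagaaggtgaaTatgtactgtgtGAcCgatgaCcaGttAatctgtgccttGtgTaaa
Mid2: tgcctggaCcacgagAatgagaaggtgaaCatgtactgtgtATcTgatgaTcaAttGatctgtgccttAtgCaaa

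The *Mid1* and *Mid2* stretches differ at 11 of 75 bases. Over the whole coding sequence the *MID* pair was identical at 70.2% of 2039 aligned bases, with no identical run longer than 17 bases. The pair of *Ppp2ca* and *Ppp2cb* was identical at 81.7% of 930 bases, with a longest identical run of 25 bases. A read of 75 bases from the coding part of any of these 4 genes therefore carried differences from its paralog. In a search of the whole genome for matches of at least 50 bases and 95% identity, 3.41% of the exonic bases of *Mid1*, 1.32% of those of *Mid2*, 1.07% of those of *Igbp1*, 8.42% of those of *Ppp2ca* and 0% of those of *Ppp2cb* had a copy elsewhere.

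Library totals ran from 36667685 to 43835004 counts for WT and from 54715889 to 61908422 for KO-labelled cells. The 9 mESC markers were counted in all 4 libraries, with a summed level of 4856 to 5191 CPM (counts scaled to the library total), and 2 of them (*Dppa5a* and *Zfp42*) were higher in KO-labelled cells. The summed level of 6 primitive endoderm markers was 10.9 and 11.9 CPM in WT and 5.98 and 5.07 CPM in the KO-labelled libraries, and 2 of them (*Gata4* and *Sox7*) were lower. The 7 fibroblast markers summed to 3.55 and 4.02 CPM in WT and 8.85 and 10.01 CPM in the KO-labelled libraries, where *Thy1* alone passed the test, while *Postn*, *Lum* and *Dcn* had at most 8 counts in any library. *Spen* itself had 2803 and 2798 counts in WT and 8955 and 7976 in KO-labelled cells, a log2 fold change of 1.05 ± 0.21 (SE, adjusted p = 7.7e-06). The extent of the deletion over these exons was not analysed here, so the gene-level count does not check that label. At the threshold used for these markers, an adjusted p under 0.05, 16.4% of all tested genes were higher and 15.8% were lower. The part of these shifts in the results below was not tested.

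*Mid1* was close to lost from the KO-labelled libraries. Its gene (ENSMUSG00000035299.9) spans 320540 bases at chrX:166123129-166443668 on the plus strand, with 6722 exonic bases in 18 annotated transcripts, and ends 206.6 kb before the end of the mm9 X chromosome sequence. WT replicate 1 held 1275 raw counts of *Mid1* and WT replicate 2 held 1664, against 27 and 42 in KO-labelled replicates 1 and 2. These low counts came from the more deeply sequenced group.

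After scaling to equal depth (DESeq2 size factors), *Mid1* had 1690 and 1812 normalized counts in WT (mean 1751 ± 86.0, SD, n = 2) and 23.5 and 32.9 in KO-labelled cells (28.2 ± 6.62, n = 2). The groups were far apart, and the fitted log2 fold change was −5.95 ± 0.22 (SE), a level 61.7-fold lower. Fewer cells that express *Mid1* and less *Mid1* RNA per cell cannot be told apart in these bulk samples. Among 13306 genes with a mean of at least 50 normalized counts, the change of *Mid1* was the 9th lowest, and among the 484 of them on the X chromosome it was the 2nd lowest. The median log2 fold change of those X-linked genes was −0.06.

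*Mid2*, which encodes the closest relative of MID1, was barely detected in either group. Its raw counts were 12 and 10 in WT and 14 and 12 in KO-labelled cells. These correspond to 15.9 and 10.9 normalized counts in WT (13.4 ± 3.55, SD, n = 2) and 12.2 and 9.39 in KO-labelled cells (10.8 ± 1.98, n = 2), so the groups overlapped. No difference was detectable at this depth, with a log2 fold change of −0.31 ± 0.95 (SE, adjusted p = 0.856) and a 95% interval from −2.18 to 1.56. The gene lies at chrX:137199138-137302254 and has 8114 exonic bases.

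**Figure D1:**
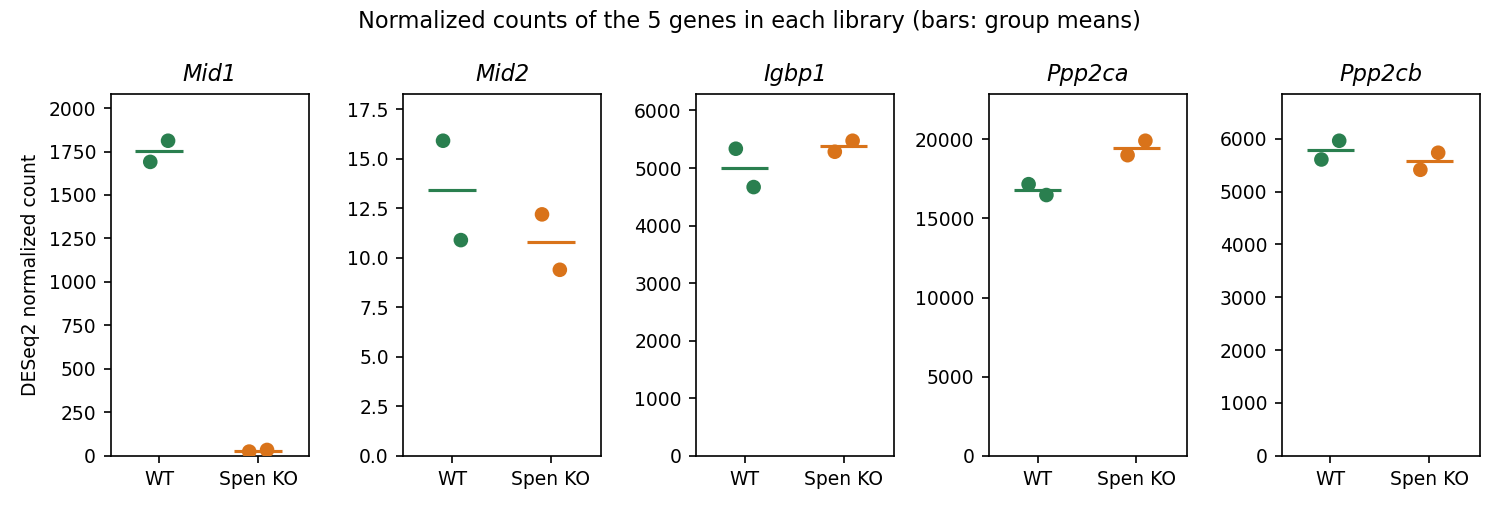
DESeq2 normalized counts of *Mid1*, *Mid2*, *Igbp1*, *Ppp2ca* and *Ppp2cb* in each library (points; green WT, orange KO-labelled, 2 libraries each), with horizontal bars at the group means and each vertical axis starting at 0 on its own scale. *Mid1* went from a mean of 1751 to 28.2, *Ppp2ca* was higher in both KO-labelled libraries, and the groups of the other 3 genes overlapped.

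*Igbp1* encodes alpha4, the adaptor between MID1 and the PP2A catalytic subunit. It had 5335 and 4668 normalized counts in WT (5002 ± 471, SD, n = 2) and 5283 and 5474 in KO-labelled cells (5378 ± 135, n = 2). The groups overlapped, since WT replicate 1 lay between the KO-labelled libraries. The log2 fold change was 0.11 ± 0.09 (SE, adjusted p = 0.396), and its 95% interval ran from −0.06 to 0.27. It was 0.21 without WT replicate 1 and 0.016 without WT replicate 2. *Igbp1* is also X-linked, at chrX:97689630-97711464, and overlaps no other annotated gene. Its paralog *Igbp1b* had 2 counts in each WT library and 0 in each KO-labelled library, too few for a comparison.

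*Ppp2ca* encodes the alpha isoform of the PP2A catalytic subunit and was the most abundant of the 5 genes by count. It had 17170 and 16483 normalized counts in WT (16827 ± 486, SD, n = 2) and 19004 and 19917 in KO-labelled cells (19460 ± 646, n = 2), and the groups did not overlap. The log2 fold change was 0.21 ± 0.07 (SE, adjusted p = 0.00745), with a 95% interval from 0.08 to 0.34, a ratio of 1.16. This call was lost with the replicate block (adjusted p = 0.104) and when WT replicate 2 (0.18, adjusted p = 0.143) or KO-labelled replicate 2 (0.18, adjusted p = 0.19) was left out. The gene lies at chr11:51912183-51941280, and the median over measured genes of chromosome 11 was 0.16 on the same scale. With each chromosome's median removed, the log2 fold change of *Ppp2ca* was 0.05 (adjusted p = 0.698).

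*Ppp2cb* encodes the beta isoform of the same subunit. It had 5608 and 5963 normalized counts in WT (5786 ± 251, SD, n = 2) and 5413 and 5736 in KO-labelled cells (5575 ± 228, n = 2), and the groups overlapped. The log2 fold change was −0.05 ± 0.08 (SE, adjusted p = 0.67), with a 95% interval from −0.21 to 0.10. The gene lies at chr8:34710093-34730266, where its last 209 exonic bases are shared with *Ubxn8* on the opposite strand, whose own log2 fold change was 0.15 (adjusted p = 0.37).

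Of the 4 genes other than *Mid1*, 1 was therefore higher and 0 were lower at an adjusted p under 0.05, where 16.4% of all tested genes were higher and 15.8% were lower. At the study's own thresholds, a fold change of at least 2 with an adjusted p under 0.001, 0 of the 4 were called in either direction. By that rule 1.36% of all tested genes were called higher and 3.15% were called lower.

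Levels between genes were compared as RPKM (counts scaled to exonic length and to the library total). In WT the order of the RPKM levels was *Ppp2cb* (65.8 ± 3.70, SD, n = 2), *Ppp2ca* (46.6 ± 0.746), *Igbp1* (18.2 ± 1.48), *Mid1* (5.41 ± 0.335) and *Mid2* (0.0342 ± 0.00864). The libraries of neighbouring genes in this order did not overlap. *Mid1* thus stood near the middle of expressed genes in WT, at the 45.8th percentile of RPKM among the 13306 genes, and *Igbp1* at the 73.8th.

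In the KO-labelled libraries the order of the RPKM levels was the same, with *Ppp2cb* at 63.5 ± 1.85 (SD, n = 2), *Ppp2ca* at 54.1 ± 1.16, *Igbp1* at 19.6 ± 0.261, *Mid1* at 0.0872 ± 0.0195 and *Mid2* at 0.0277 ± 0.00541. *Mid1* now stood at the 0.308th percentile of the 13306 genes, a description only, since it was chosen by its fall and met the minimum of 50 mean normalized counts through its WT level. The share of *Mid1* in the summed RPKM of the 2 paralogs was 99.2% and 99.5% in WT against 69.95% and 80.9% for KO-labelled cells. That sum was 5.44 ± 0.327 RPKM (SD, n = 2) in WT and 0.115 ± 0.0141 (n = 2) in KO-labelled cells. The order of the 2 catalytic subunits depends on the length used. *Gm17500*, a non-coding gene on the opposite strand with 0 counts in all libraries, covers 39.9% of the exonic bases of *Ppp2ca*. With all bases shared with another gene left out of the length, *Ppp2ca* had 80.8 RPKM in WT and 93.7 in the KO-labelled libraries. These lay above the 74.3 and 71.7 of *Ppp2cb*. All counts were kept in that calculation, so these levels are too high if reads from shared bases were counted for their gene. Whether they were depends on the strand setting, which is not stated.

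**Figure D2:**
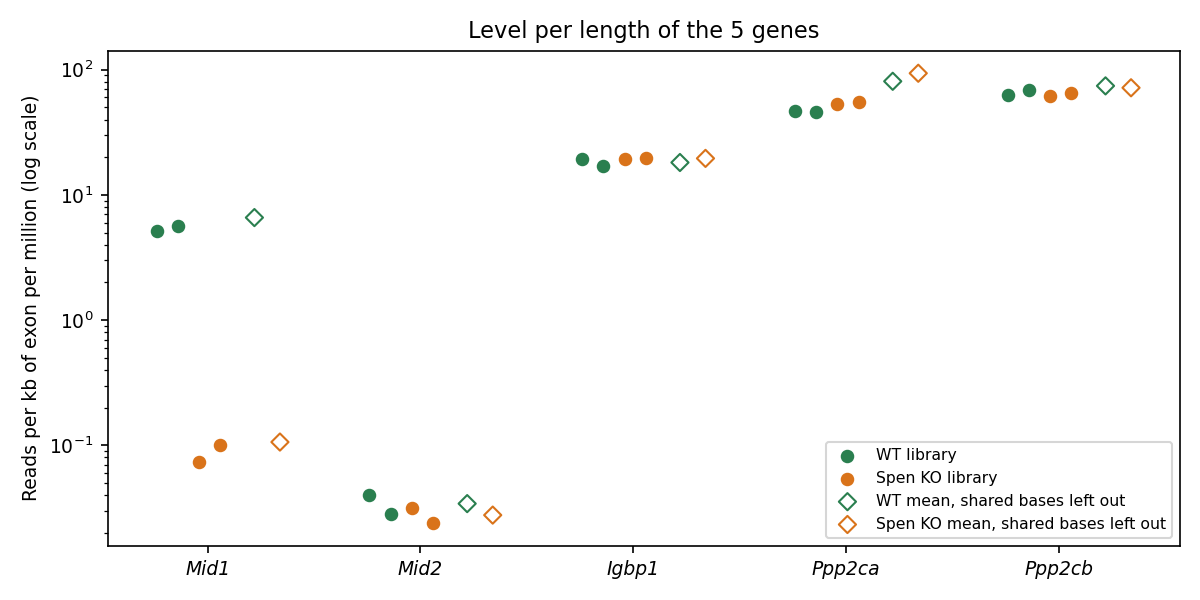
Level per length of the 5 genes in RPKM (log scale) by gene, as filled circles for each library (green WT, orange KO-labelled). Open diamonds are group means with bases shared with another gene left out of the length and all counts kept. *Mid1* is the gene whose groups stand apart by more than an order of magnitude (5.41 against 0.0872), and the diamonds of *Ppp2ca* rise above those of *Ppp2cb*.

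The summed RPKM of *Ppp2ca* and *Ppp2cb* was 112 ± 2.96 (SD, n = 2) in WT and 118 ± 3.01 (n = 2) in the KO-labelled libraries. *Ppp2ca* made up 42.7% and 40.3% of that sum in WT and 46.1% and 45.8% in the KO-labelled libraries. Both KO-labelled shares lay above both WT shares, but an exact two-sided permutation test of 2 against 2 libraries cannot go below p = 0.333, the value it gave here for the share and for the sum.

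Genes annotated on the other strand inside the span of *Mid1* were also low in KO-labelled cells. The annotation places 6 genes there, all opposite to *Mid1*, of which 4 had a mean of at least 10 counts. The lincRNA gene *G530011O06Rik* (chrX:166412975-166416849) had 263 and 271 counts in WT and 2 and 8 in KO-labelled cells, a log2 fold change of −6.29 ± 0.53 (SE). *Gm15726* had 129 and 177 counts in WT and 1 and 7 in KO-labelled cells (−5.80 ± 0.62). Without KO-labelled replicate 1 these 2 genes were at −5.68 and −5.05, and without KO-labelled replicate 2 at −7.53 and −7.70. All 4 of these genes lie in the last part of the *Mid1* span, and in each the KO-labelled libraries stood far below the WT libraries. Each met the minimum of 10 counts only through its WT libraries, so this filter favours genes that are high in WT.

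*Gm15247*, at 79 and 83 counts in WT, had no counts in KO-labelled cells and was at least 39.3-fold lower against a floor of 3 counts per library. *Gm17379*, at 40 and 36 counts in WT, was likewise at 0 in KO-labelled cells, at least 18.6-fold lower. Such floors cover counting error only. The strand setting of the counting was not stated, so reads of *Mid1* and of these genes cannot be fully told apart. *G530011O06Rik* shares 40.0% of its exonic bases with *Mid1*, which is 14.1% of those of *Mid1*. *Gm15726* shares 28.3% and *Gm15247* shares 27.3% of theirs. *Gm17379* shares none, but it has only 42 exonic bases. A read of 75 bases counted for it therefore also covers bases outside its exons, within the span of *Mid1*. The other 2 genes, *SNORA51* and *4933400A11Rik*, had at most 2 counts in any library.

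Of 25 annotated genes within 2 Mb, 5 had a mean of at least 10 counts and did not overlap *Mid1*, and 0 of these 5 passed an adjusted p under 0.05 in the DESeq2 fit in either direction, against 16.4% of all tested genes higher and 15.8% lower. The nearest was *BC022960*, 315.2 kb upstream, with 63.6 and 44.6 normalized counts in WT and 61.8 and 56.3 in KO-labelled cells (0.13 ± 0.46, SE, adjusted p = 0.874). *Hccs*, which encodes the mitochondrial enzyme that attaches heme to cytochrome c, had 1884 and 2091 normalized counts in WT and 1989 and 1704 in KO-labelled cells. Its log2 fold change was −0.11 ± 0.11 (SE, adjusted p = 0.522), and it was the best measured of the neighbours. *Msl3*, a chromatin protein gene 1011.3 kb away, had a log2 fold change of 0.18 ± 0.19 (SE, adjusted p = 0.541), and *Gm15246* and *Arhgap6* had at most 36 counts in any library. The 2 annotated genes between *Mid1* and the end of the chromosome had 0 counts.

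**Figure D3:**
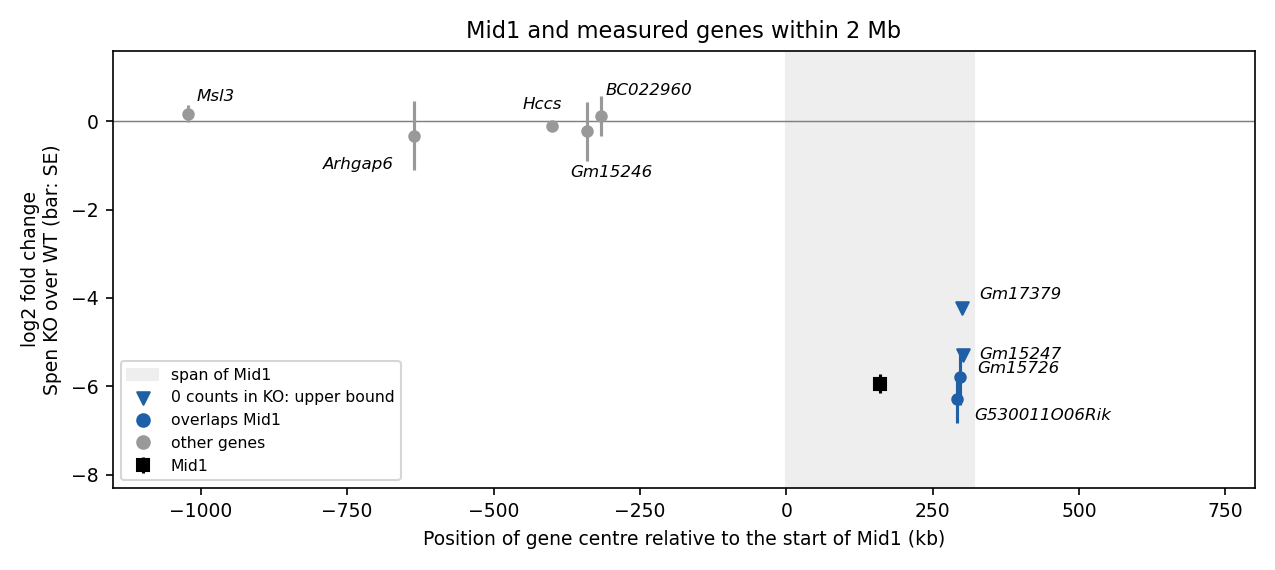
Log2 fold change (KO-labelled over WT, bars ± SE) of *Mid1* (square) and of every measured gene within 2 Mb, against the position of the gene's centre relative to the start of *Mid1* in kb, with the span of *Mid1* shaded. The 4 genes inside the span (blue, with triangles as upper bounds where both KO-labelled libraries had 0 counts) lie far below zero with *Mid1*. They met the count minimum only through WT. The 5 genes outside the span (grey) lie between −0.32 and 0.18.

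The genes whose pattern over the 4 libraries lay closest to that of *Mid1* were sought by the Euclidean distance between centred profiles of log2(normalized count + 1), among genes with a mean of at least 50 normalized counts. The closest was *Peg10* on chromosome 6, an imprinted gene of retrotransposon origin, at a distance of 0.617, with 1811 and 2168 normalized counts in WT and 22.6 and 21.9 in KO-labelled cells. *Olig2* on chromosome 16, which encodes a transcription factor of the oligodendrocyte lineage, followed at 0.718, with 2186 and 2528 in WT and 19.2 and 26.6 in KO-labelled cells. *G530011O06Rik* (0.748) and *Gm15726* (0.962) came next, and *Dynlt1b* on chromosome 17, a dynein light chain gene with 0 counts in KO-labelled cells, was the 5th at 1.04. With 2 groups of 2 libraries this likeness mostly reflects the size of the difference between groups. Copies elsewhere in the genome were not sought for these similar genes, and the handling of multiply mapped reads is not stated.

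The other genes of the pathway were read from 6 lists with 65 symbols. Over all 17710 tested genes the median log2 fold change was 0.00, and the shares given above for all tested genes hold for each count below. Of the PP2A scaffold and regulatory subunits, which place the catalytic subunit on its substrates, 15 were tested, and 3 were higher and 6 lower at an adjusted p under 0.05, with a median of −0.16. The scaffold gene *Ppp2r1a* had 13267 and 14071 normalized counts in WT and 10773 and 10468 in KO-labelled cells, a log2 fold change of −0.36 ± 0.07 (SE, adjusted p = 1.72e-06). Its paralog *Ppp2r1b* fell from 9140 and 8759 to 7598 and 7566 (−0.24 ± 0.07, adjusted p = 0.00338).

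Among regulatory subunits, the B56 gene *Ppp2r5c* was lower (−0.40 ± 0.08, SE, adjusted p = 3.43e-06). *Ppp2r5a* was also lower (−0.42 ± 0.09, adjusted p = 1.04e-05), but 77.8% of its exonic bases have copies elsewhere and its count is uncertain. The B55 gene *Ppp2r2a* was higher (0.39 ± 0.09, adjusted p = 8.85e-05), with 2103 and 2206 normalized counts in WT against 2846 and 2822. Copies elsewhere cover 21.6% of the exonic bases of *Ppp2r2a* and 10.4% of those of *Ppp2r1a*. None of the 15 reached a fold change of 2. With the replicate number as a block 3 were higher and 3 lower, with chromosome medians removed 4 were higher and 4 lower, and *Ppp2r5c*, on chromosome 12 with a median of −0.32, was then at −0.09 (adjusted p = 0.486). *Ppp2r1b* lost its call with the block (adjusted p = 0.0688) and without WT replicate 1 (adjusted p = 0.13), KO-labelled replicate 1 (adjusted p = 0.0828) or KO-labelled replicate 2 (adjusted p = 0.0988), and with 1 library left out the list held 2 higher in each case and 3 or 4 lower.

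Of the genes that modify or inhibit the catalytic subunit, 9 were tested, and 3 were higher and 0 lower, with a median of 0.18. *Ensa*, which encodes an inhibitor of PP2A with B55 in mitosis, had a log2 fold change of 0.24 ± 0.08 (SE, adjusted p = 0.00606). *Ppp2r4*, the PP2A activator gene, was at 0.25 ± 0.10 (adjusted p = 0.0366), and *Lcmt1*, the methyltransferase of the catalytic subunit, was at 0.25 ± 0.10 (adjusted p = 0.0382). None of the 3 calls held with chromosome medians removed or with the replicate block, where the list had 0 higher and 0 lower. With upper-quartile size factors 5 were higher and with edgeR 2 were higher. With 1 library left out the list held 1 higher whichever library it was: *Ensa* was lost without WT replicate 2 (adjusted p = 0.125) or KO-labelled replicate 2 (adjusted p = 0.177), *Ppp2r4* without WT replicate 1 (adjusted p = 0.385) or KO-labelled replicate 1 (0.12, adjusted p = 0.515), and *Lcmt1* in all 4 cases (adjusted p = 0.0698 to 0.39).

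PP4 and PP6 are the related phosphatases whose catalytic subunits alpha4 also binds. All 13 genes of that list were tested, with 3 higher, 1 lower and a median of 0.10. *Ppp4c*, the PP4 catalytic subunit gene, had a log2 fold change of 0.04 ± 0.07 (SE, adjusted p = 0.735), and its sign turned to −0.05 with chromosome medians removed and to −0.02 without KO-labelled replicate 2. *Ppp6c*, the PP6 catalytic subunit gene, had 3431 and 3363 normalized counts in WT and 4042 and 4104 in KO-labelled cells (0.26 ± 0.08, adjusted p = 0.00514). That call was lost with any 1 library left out, though the log2 fold change stayed at 0.25 to 0.28. It was also lost with the replicate block (0.26, adjusted p = 0.0754) and with chromosome medians removed (0.15, adjusted p = 0.151).

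The PP4 regulatory gene *Ppp4r4* was the single called gene of the list. It had 83 and 151 counts in WT and 31 and 54 in KO-labelled cells, a log2 fold change of −1.99 ± 0.41 (SE, adjusted p = 1.13e-05). It was not called without WT replicate 1 (adjusted p = 0.00124), WT replicate 2 (−1.66, adjusted p = 0.0577) or KO-labelled replicate 1 (adjusted p = 0.0127). *Ppp6r3* was higher at 0.41 ± 0.07 (adjusted p = 1.83e-08), on chromosome 19 with a median of 0.38, and at 0.02 (adjusted p = 0.863) with that median removed. The ankyrin subunit gene *Ankrd44* was higher at 0.76 ± 0.20 (adjusted p = 0.000901), a call lost without WT replicate 2 (adjusted p = 0.0919), KO-labelled replicate 1 (adjusted p = 0.0551) or KO-labelled replicate 2 (adjusted p = 0.0697). The list held 2 higher and 1 lower with the replicate block, 1 higher and 1 lower with chromosome medians removed, and 1 or 2 higher and 0 or 1 lower with 1 library left out.

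**Figure D4:**
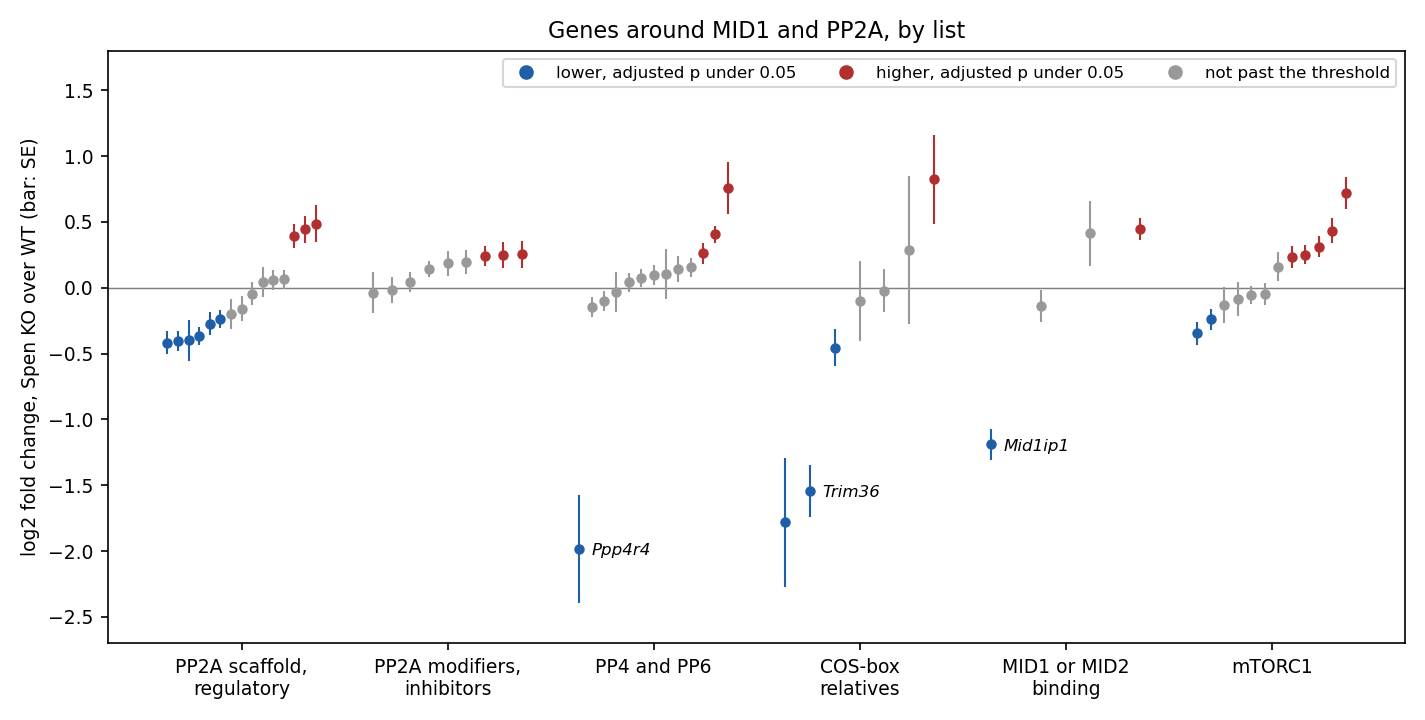
Log2 fold change (KO-labelled over WT, bars ± SE) of every tested gene of the 6 pathway lists, ordered by value within each list, coloured by whether it was lower (blue) or higher (red) at an adjusted p under 0.05. Most genes lie within 0.5 of zero, and *Ppp4r4* (−1.99), *Trim67* (−1.78), *Trim36* (−1.54) and *Mid1ip1* (−1.19) lie far below the rest.

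The relatives of MID1 that share its COS box, a motif that binds microtubules, were tested for 7 of 9 genes, with 1 higher, 3 lower and a median of −0.10. That median was −0.20 without WT replicate 1 and −0.064 without KO-labelled replicate 2. Without KO-labelled replicate 1 it was −0.21 over the same 7 genes and −0.35 over the 6 that received an adjusted p in that fit. It was −0.19 with chromosome medians removed and −0.063 with upper-quartile size factors. *Trim36*, a ubiquitin ligase gene, was called lower. It had 541 and 503 normalized counts in WT and 192 and 167 in KO-labelled cells, a log2 fold change of −1.54 ± 0.19 (SE, adjusted p = 7.6e-14), and it passed an adjusted p under 0.05 in all 10 alternative fits. *Trim67* was lower on 86.2 and 84.9 normalized counts in WT against 17.4 and 32.1 (−1.78 ± 0.49, adjusted p = 0.00137). Its adjusted p was above 0.05 without WT replicate 1 (0.0786), WT replicate 2 (0.0826) or KO-labelled replicate 1 (0.102).

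*Fsd1* was lower (−0.46 ± 0.14, SE, adjusted p = 0.00565) and the muscle ubiquitin ligase gene *Trim63* was higher (0.83 ± 0.34, adjusted p = 0.0461). Both calls were lost with any 1 library left out, at log2 fold changes of −0.48 to −0.42 for *Fsd1* and 0.75 to 0.90 for *Trim63*. They were also lost with the replicate block (adjusted p = 0.0546 and 0.152), which left 0 higher and 2 lower, and *Fsd1* with chromosome medians removed (adjusted p = 0.0759), which left 1 higher and 2 lower. *Trim55* had no counts and *Trim9* at most 8 in any library. *Mid1* itself was not counted in this list.

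Of 4 genes for proteins tied to MID1 or MID2 as partners or substrates, 1 was higher and 1 lower. *Mid1ip1*, the X-linked gene of a MID1-interacting protein that also promotes lipid synthesis (chrX:10292139-10296816), had 1732 and 1740 normalized counts in WT (1736 ± 6.15, SD, n = 2) and 706 and 814 in KO-labelled cells (760 ± 76.1, n = 2). It was called lower at −1.19 ± 0.12 (SE, adjusted p = 7.68e-22) and lay between −1.29 and −1.09 in all 10 alternative fits, and the opposite-strand gene *Gm14493*, which overlaps it, had 0 counts. *Spag5*, which encodes the spindle protein astrin, a known MID2 substrate, was higher (0.44 ± 0.08, adjusted p = 1.11e-06), with 3647 and 3332 normalized counts in WT against 4714 and 4781. *Stk36* (0.41 ± 0.25, adjusted p = 0.211) and *Gli3* (−0.14 ± 0.12, adjusted p = 0.436), which act in hedgehog signalling, did not pass the test.

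All 12 mTORC1 genes were tested, and 5 were higher and 2 lower, with no gene past a fold change of 2. The median was 0.06, and turned to −0.0091 without WT replicate 1 and lay between 0.048 and 0.15 with any other library left out, at 0.15 without WT replicate 2. The S6 kinase gene *Rps6kb2* had 823 and 865 normalized counts in WT and 1456 and 1330 in KO-labelled cells (0.72 ± 0.12, SE, adjusted p = 3.29e-08). *Tsc1*, an inhibitor of the pathway, was higher (0.43 ± 0.09, adjusted p = 3.01e-05), as was *Rptor*, the mTORC1 scaffold gene (0.31 ± 0.08, adjusted p = 0.000482). *Eif4ebp2*, a translation repressor gene and mTORC1 target, was lower (−0.35 ± 0.08, adjusted p = 0.000271). The remaining higher genes, named after their values were seen, were *Tsc2* (0.25 ± 0.07, adjusted p = 0.00371) and *Rps6kb1* (0.23 ± 0.08, adjusted p = 0.0213). With the median of their chromosome subtracted they were at 0.39 and 0.07. The other lower gene, named likewise, was the kinase gene *Mtor* (−0.24 ± 0.08, adjusted p = 0.0116). Its call was lost with the replicate block (adjusted p = 0.107), with chromosome medians removed (−0.032, adjusted p = 0.833) and with any 1 library left out (adjusted p = 0.0539 to 0.251).

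The calls of *Rps6kb2* and *Tsc1* held in all 10 alternative fits, although *Rps6kb2*, on chromosome 19, was at 0.34 with chromosome medians removed. *Eif4ebp2*, on chromosome 10 with a median of −0.35, was then at −0.00 (adjusted p = 0.994), and its call was also lost without WT replicate 2 (adjusted p = 0.0849) or KO-labelled replicate 2 (adjusted p = 0.0501). *Rptor* was lost with chromosome medians removed (0.15, adjusted p = 0.167) and without WT replicate 1 (adjusted p = 0.0515). The list held 3 higher and 1 lower with the replicate block, 3 higher and 0 lower with chromosome medians removed, and 3 higher and 0 or 1 lower with 1 library left out.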

How the data were processed

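RNA-seq had been done in 2 libraries per group from stranded, ribosomal RNA-depleted libraries with paired 75-base reads. The authors mapped reads to mm9 with STAR and counted them per GENCODE vM1 gene in featureCounts. The deposited unit is the raw count. Versions, strand setting and handling of multiply mapped reads are not given in the sources used here. Groups came from the labels, and columns were matched by name. Counts were fitted over the whole table in R 4.3.3 by DESeq2 1.42.0 (a Wald test on group, Benjamini-Hochberg adjustment), with edgeR 4.0.16 among the alternatives, and the scripts were tested on simulated data. Gene structure and sequence came from GENCODE vM1 and the mm9 genome, which matched all 37310 identifiers, and copies were sought with blastn 2.17.0. RPKM was computed with library totals and exonic length. Named genes were the 5 genes, called members of the lists, up to 4 further members per list with the smallest adjusted p under 0.05, *Ppp2r1a*, *Ppp2r1b*, *Ppp4c*, *Ppp6c*, *Mid1ip1* and *Igbp1b*, genes inside *Mid1*, its nearest measured neighbour and the 5 closest patterns. Other genes were named after their values were seen. Genes and lists were chosen with earlier results of these data known. Replicates differed beyond sampling noise. Deviations of same-numbered libraries correlated at −0.0177, which gave no sign of pairing by number. No source used here says whether the libraries were paired. The sequences of the phosphatase pair are not reported here.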

Additional observations from a re-analysis of the deposited data

How the results depend on the processing

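With 2 libraries per group and 1 KO-labelled clone, the tests measure spread between libraries only, and depth limits *Mid2* most. Leaving out 1 library leaves 1 in its group, so a call can be lost there through the smaller number of libraries. *Mid1* lay between −6.22 and −5.73 on the log2 scale in all 10 alternative fits (2 other scalings (upper-quartile and TMM), low counts filtered, edgeR, the replicate block, chromosome medians removed and each library left out), and *Mid2*, *Igbp1* and *Ppp2cb* kept their direction in all of them, with wide ranges that reached near 0 (*Mid2* −0.56 to −0.010, *Igbp1* 0.016 to 0.21, *Ppp2cb* −0.16 to −0.0045). *Igbp1* and *Ppp2cb* did not pass an adjusted p under 0.05 in any of the 10, nor did *Mid2* in the 5 that gave it an adjusted p. Leaving out 1 library gave 137 to 185 genes called higher (241 with all libraries) and 332 to 404 called lower (558). At an adjusted p under 0.05 with no minimum fold, 2909 were higher and 2805 lower. *Ppp2ca* had a log2 fold change of 0.21 (adjusted p = 0.104) with the replicate block and 0.045 (adjusted p = 0.698) with chromosome medians removed, and 0.18 to 0.25 with 1 library left out. The cause was not tested. The median of the PP2A scaffold and regulatory list was −0.12 with upper-quartile size factors, −0.036 with chromosome medians removed and −0.18 to −0.076 with 1 library left out. The median of the modifier list was 0.094 with chromosome medians removed. For the PP4 and PP6 list it was 0.13 with upper-quartile size factors and 0.036 with chromosome medians removed. The sign of *Ppp4c* turned with chromosome medians removed (−0.053) and without KO-labelled replicate 2 (−0.016, range with 1 library left out −0.016 to 0.11), and that of *BC022960* without WT replicate 2 (−0.10, range −0.10 to 0.41), neither past the threshold. With the replicate block 192 genes were called higher and 457 lower.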
